A study of Homo sapiens with 6 samples.

Results

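The 59 genes described here build, move and divide chromosomes in mitosis. They comprise centromere and kinetochore subunits, mitotic kinesins, spindle assembly factors, cytokinesis genes, checkpoint genes, mitotic kinases, condensin and cohesion genes. They were taken by symbol from a fixed list, whose rule names no measured value, from a table of 21631 gene symbols. That list, the companion lists and the tests were chosen with earlier results of these data known. All 59 genes were among the 16910 that passed the filter on low counts. RNA was sequenced from A-375, an established human melanoma line, with a guide RNA labelled sgSEPHS2 (3 libraries) or a control guide labelled sgCTRL (3 libraries). SEPHS2 makes selenophosphate, the selenium donor for selenocysteine. The labels name no agent, dose or time, no clone or separate knockout line, and no culture behind a replicate number. The p-values therefore measure the spread between these libraries, which may be technical, and founding cells that differed between the groups cannot be told apart from the guide itself.

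In mitosis the kinetochore is assembled on centromeric chromatin marked by CENPA, and its outer layer binds spindle microtubules. Unattached kinetochores hold the spindle checkpoint active. Once it is satisfied, CDC20 activates the anaphase-promoting complex, separase cuts cohesin, and centralspindlin, anillin and ECT2 position the cleavage furrow. Most of these genes are transcribed in G2 and mitosis under the DREAM and MMB-FOXM1 complexes, which act at cell cycle genes homology region (CHR) elements, often beside CCAAT boxes bound by NF-Y. Tumour lines in culture express them because a share of the cells is always dividing.

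The libraries labelled sgSEPHS2 held 34606145, 43405579 and 40284730 counted reads, and the sgCTRL libraries 41757643, 41288628 and 39796984. SEPHS2 mRNA, the check on the labels, was not lower in the libraries labelled sgSEPHS2. It stood at 173 ± 3.85 CPM in them and 156 ± 3.32 CPM in sgCTRL libraries (SD, n = 3 each), a log2 fold change of 0.15 (edgeR adjusted p = 0.00401). The edited sequence and SEPHS2 protein were not analysed here, and directions below are those of the labels. CPM is reads scaled per 1e6 on TMM-adjusted library sizes. The melanoma markers SOX10 (569 CPM in libraries labelled sgSEPHS2, 619 in sgCTRL) and S100B (33.1 CPM in libraries labelled sgSEPHS2, 33.9 in sgCTRL) were present. MLANA was near 1 CPM (1.30 in libraries labelled sgSEPHS2, 1.17 in sgCTRL). Of the 10 melanoma markers 0 were called higher and 3 lower (SOX10, MITF and NES), and their summed level was 710.5 to 737 CPM in libraries labelled sgSEPHS2 and 833 to 853 CPM in sgCTRL libraries. Leukocyte markers, 3 of 5 in the table, summed to 6.52 to 7.205 CPM in libraries labelled sgSEPHS2 and 3.35 to 4.38 CPM in sgCTRL libraries. LYZ was called higher among them (6.70 CPM in libraries labelled sgSEPHS2, 3.28 in sgCTRL), and PTPRC was near 0 (0.0082 in libraries labelled sgSEPHS2, 0.132 in sgCTRL). Epithelial markers, 4 of 5 in the table, summed to 245 to 253 CPM in libraries labelled sgSEPHS2 and 202 to 206 CPM in sgCTRL libraries, with KRT8 and KRT18 called higher and EPCAM at 0.525 CPM in libraries labelled sgSEPHS2 and 0.603 in sgCTRL. The 5 fibroblast markers summed to 48.2 to 54.5 CPM in libraries labelled sgSEPHS2 and 72.5 to 74.3 CPM in sgCTRL libraries, with LUM called higher and PDGFRB and COL1A1 lower. Of the 4 endothelial markers, at 7.82 to 8.73 CPM in libraries labelled sgSEPHS2 and 8.69 to 9.52 CPM in sgCTRL libraries, 0 were called. The part of these markers in the results below was not tested.

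Transcripts of the mitotic machinery were higher in the libraries labelled sgSEPHS2. Of the 59 genes, 57 were called higher and 0 lower at a Benjamini-Hochberg adjusted p under 0.05 in edgeR's quasi-likelihood test, against 22.0% of all 16910 tested genes called higher. PRC1 and INCENP were not called. The median log2 fold change was 0.46, which is 1.37-fold, with quartiles of 0.33 and 0.57 and a range of 0.06 to 1.18, while the median of all tested genes was 0.01. The rises were modest: 12 of the 59 were called and at least 1.5-fold higher, against 3.6% of all tested genes. Tested against a null of up to 1.2-fold, 39 of the 59 were called higher, against 6.35% of tested genes.

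The shift was present in each library. Together the 59 genes took 0.854, 0.801 and 0.812% of counted reads in the libraries labelled sgSEPHS2, against 0.641, 0.625 and 0.636% in the sgCTRL libraries. The groups did not overlap: the means were 0.823 ± 0.028% in libraries labelled sgSEPHS2 and 0.634 ± 0.0082% in sgCTRL libraries (SD, n = 3 each). Gene by gene, every library labelled sgSEPHS2 lay above every sgCTRL library for 56 of the 59 genes, against 26.5% of all tested genes in that direction and 52.1% in either. The exceptions were PRC1, INCENP and MKI67. Against the sgCTRL mean, the median gene stood 0.50, 0.43 and 0.40 log2 units up in replicates 1, 2 and 3 labelled sgSEPHS2. Replicate 1, the shallowest library, was the highest of its group for 41 of the 59 genes, and replicate 3 was the lowest for 31. In RNA from a whole culture, a larger share of cells in G2 and mitosis and more of these transcripts per dividing cell cannot be told apart.

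**Figure D1:**
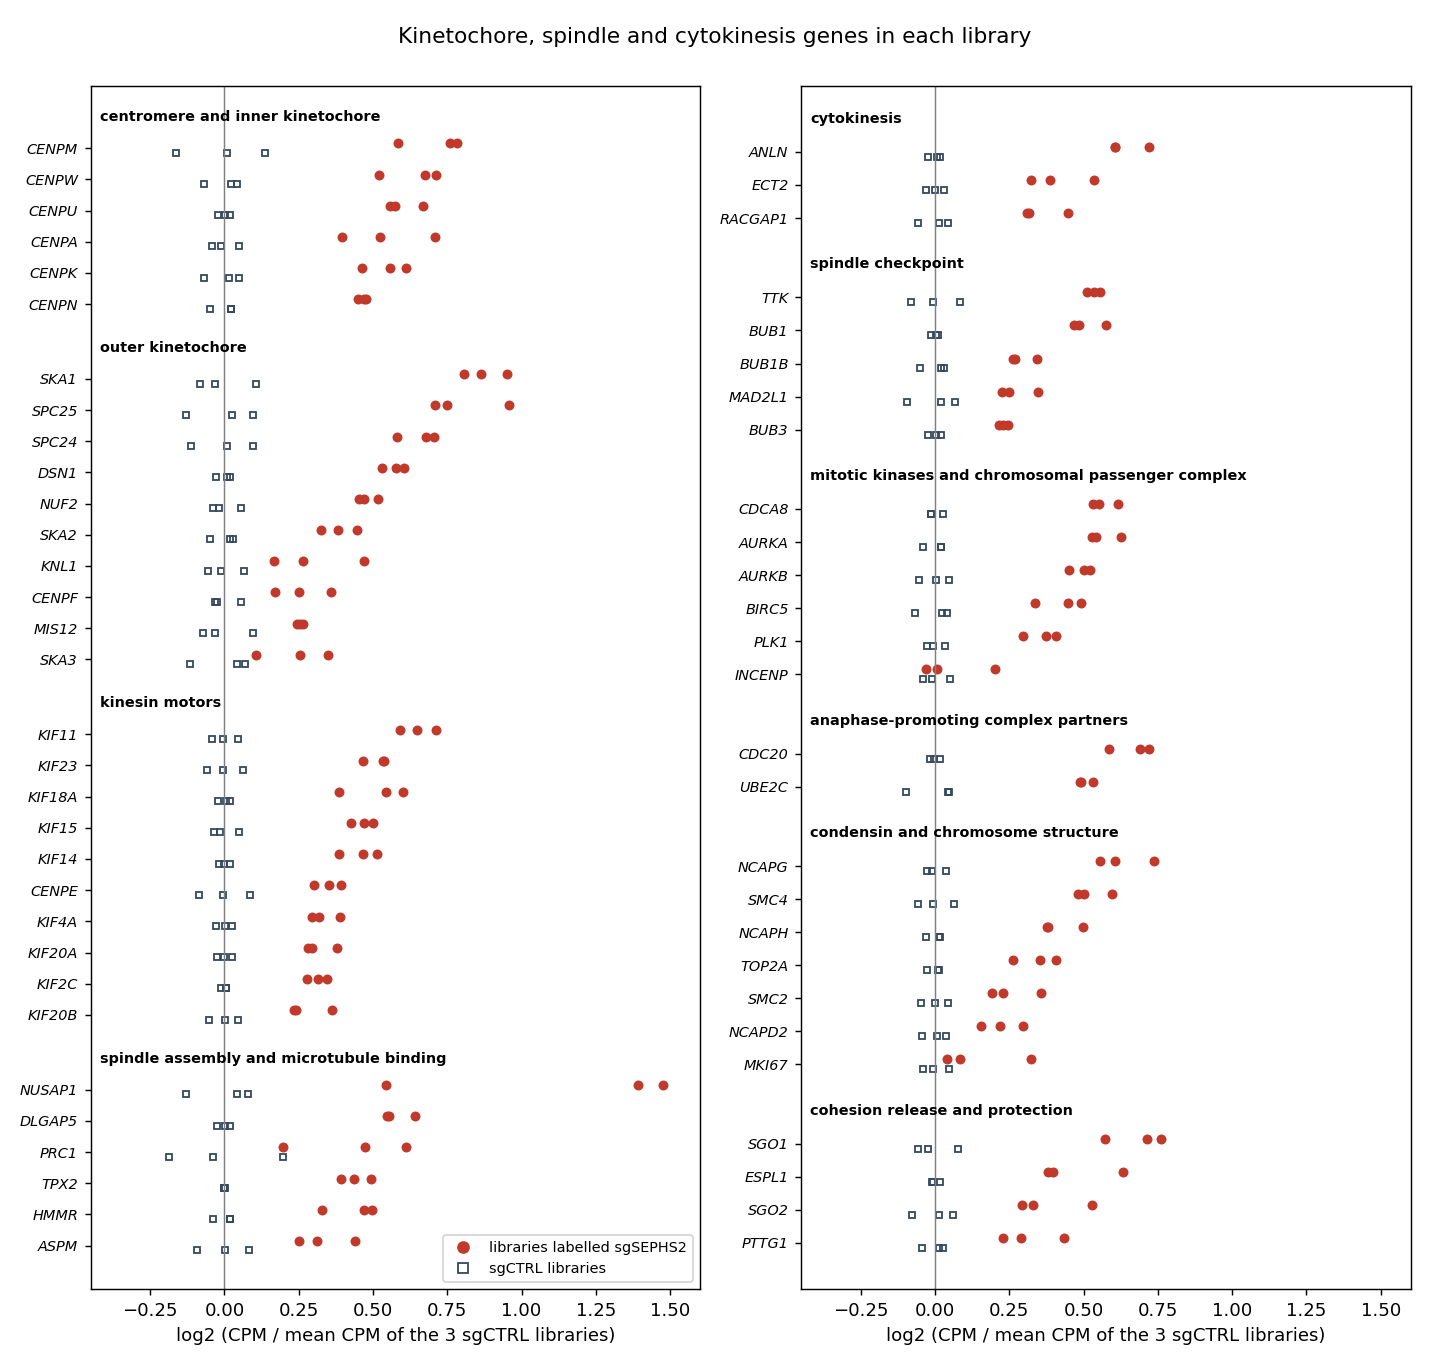
Level of each of the 59 genes in each library, as log2 of its CPM over the mean CPM of the 3 sgCTRL libraries (horizontal axis), by role. Red circles are libraries labelled sgSEPHS2 and open squares are sgCTRL libraries; the groups overlap for PRC1, INCENP and MKI67 and for no other gene.

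Genes with a lower mean CPM had larger fold changes as classes. Mean CPM is not divided by exon length here, so the classes do not rank transcripts by abundance. The median log2 fold change was 0.70 for the 8 genes with a mean under 30 CPM and 0.48 for the 24 between 30 and 100 CPM. It was 0.36 for the 23 between 100 and 300 CPM and 0.24 for the 4 above. Over all tested genes the medians of the same classes were -0.01, 0.01, 0.01 and 0.08. Exon length moved with it: the 17 genes with at least 6000 bp of exon had a median of 0.34, and the 42 shorter ones 0.49. A fit that took out the dependence on exon length and GC content over all genes, an alternative chosen after seeing the data, gave a median of 0.39 with 56 genes called higher.

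**Figure D2:**
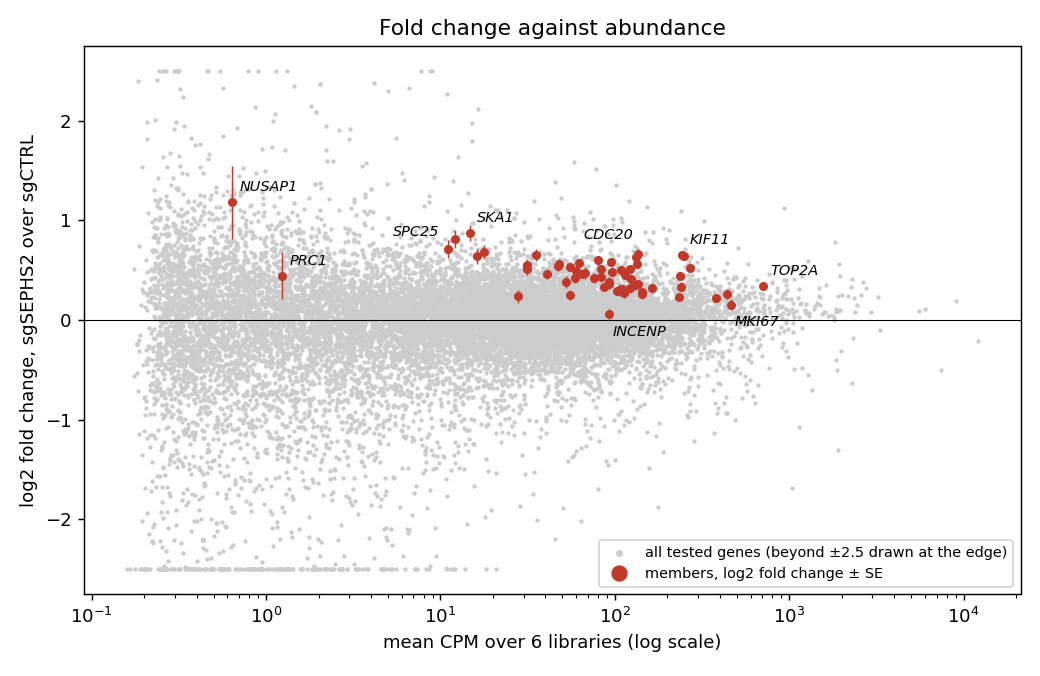
Log2 fold change, libraries labelled sgSEPHS2 over sgCTRL (vertical axis), against the mean CPM over 6 libraries (horizontal axis, log scale). Red points are the 59 genes with their SE and grey points all tested genes. The red points lie above 0 and tend to be lower at higher mean CPM, which is not divided by exon length. SKA1 (0.87) is among the 8 genes under 30 CPM, MKI67 (0.15) among the 4 above 300 CPM, and INCENP (0.06) between them.

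The start regions of these genes carry the letters of cell cycle elements far more often than those of other genes. RefSeq windows from 250 bases before to 50 after a gene start (GRCh38.p14) were available for 50 of the 59 genes, in 57 windows. The CHR core TTTGAA, searched on both strands, was in 35 of 57 windows (61.4%), against 15.2% of 35116 windows of all genes. CCAAT, also on both strands, was in 42 (73.7%, against 34.6%), and both were in 25 (43.9%, against 5.90%). Neither word contains the other. The companion genes shared this in part: of their 165 windows, 24.8% had TTTGAA, 45.5% CCAAT and 15.2% both. By companion list, the share with both ran from 3.33% in the anaphase-promoting complex to 46.2% in the outer kinetochore. Position was shared as well: CCAAT began 75 to 51 bases before the start in 40.4% of the windows, against 7.62% of all, and TTTGAA began 25 to 1 bases before it in 19.3%, against 1.17%. A match shows that the letters are there and does not show binding.

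**Figure D3:**
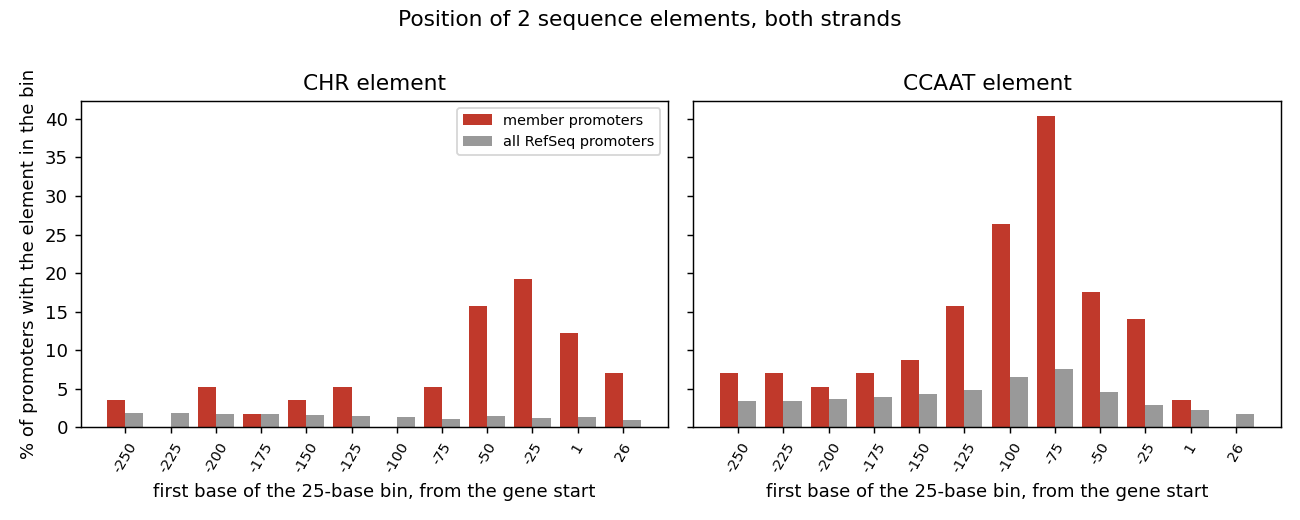
Share of promoter windows (vertical axis, percent) in which a CHR core or a CCAAT box begins, on either strand, in each 25-base bin by distance from the gene start (horizontal axis, bases). Red bars are the 57 windows of the described genes and grey bars all 35116 RefSeq windows; the red bars peak at 40.4% for CCAAT in the bin from -75 and at 19.3% for the CHR core in the bin from -25.

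A set of 4 windows shows genes with TTTGAA among those called higher, ordered by the arrangement of the elements. In KIF23 (chr15:69414099-69414398, plus strand) and PLK1 (chr16:23678639-23678938, plus strand) a CCAAT box lies upstream of a single CHR core. Their first bases are at -64 and -55 from the start in KIF23, where the CCAAT box is on the other strand, and at -73 and -29 in PLK1. CDC20 (chr1:43358731-43359030, plus strand) has a CHR core at -65 between CCAAT boxes at -100 and -55, and a further core at -178 on the other strand. SKA1 (chr18:50374796-50375095, plus strand) has a CHR core after the start, at 35, and no CCAAT. Windows are printed 5′ to 3′ in gene orientation from RefSeq; capitals mark TTTGAA and CCAAT, or TTCAAA and ATTGG where the element is on the other strand.
KIF23: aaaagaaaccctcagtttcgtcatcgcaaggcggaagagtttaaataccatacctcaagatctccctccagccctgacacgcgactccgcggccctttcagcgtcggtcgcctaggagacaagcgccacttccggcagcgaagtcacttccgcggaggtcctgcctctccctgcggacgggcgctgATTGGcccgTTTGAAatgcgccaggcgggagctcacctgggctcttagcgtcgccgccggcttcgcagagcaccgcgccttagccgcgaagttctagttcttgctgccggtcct
PLK1: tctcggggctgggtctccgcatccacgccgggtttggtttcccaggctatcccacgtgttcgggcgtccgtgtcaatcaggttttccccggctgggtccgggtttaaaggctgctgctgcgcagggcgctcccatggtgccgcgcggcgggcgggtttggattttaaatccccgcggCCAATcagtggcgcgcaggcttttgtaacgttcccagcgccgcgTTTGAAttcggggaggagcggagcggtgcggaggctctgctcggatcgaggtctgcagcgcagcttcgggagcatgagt
CDC20: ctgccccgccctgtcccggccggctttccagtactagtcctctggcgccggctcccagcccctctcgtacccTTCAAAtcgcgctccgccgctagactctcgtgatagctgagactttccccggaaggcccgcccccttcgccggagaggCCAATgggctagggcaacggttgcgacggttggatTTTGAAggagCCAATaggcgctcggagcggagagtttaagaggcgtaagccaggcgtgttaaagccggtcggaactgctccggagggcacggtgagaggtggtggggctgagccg
SKA1: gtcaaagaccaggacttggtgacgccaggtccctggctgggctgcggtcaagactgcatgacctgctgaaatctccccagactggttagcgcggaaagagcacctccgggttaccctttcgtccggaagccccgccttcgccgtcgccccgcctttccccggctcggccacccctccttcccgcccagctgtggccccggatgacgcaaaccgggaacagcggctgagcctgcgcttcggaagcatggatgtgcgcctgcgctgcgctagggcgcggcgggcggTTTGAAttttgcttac

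The pair shown here was chosen for its values: a small fold change with both elements, and a larger one with neither. Whether the letters bear on the fold change was not tested. INCENP (chr11:62123761-62124060, plus strand), with a log2 fold change of 0.06 that was not called, has a CHR core at -10 and CCAAT boxes at -107, -71 and -28, the last pair on the other strand. DSN1 (chr20:36773714-36774013, minus strand), called higher at 0.57, has neither element in its window. The median log2 fold change was 0.46 over the 35 windows with TTTGAA and 0.40 over the 22 without. It was 0.44 over the 25 with both elements, with a range of 0.06 to 1.18. Over the 32 windows without both it was also 0.44, with a range of 0.24 to 0.87. The 5 windows with neither had a median of 0.35, with a range of 0.26 to 0.57. SMC2 and SMC4, among those 5, each have another window with TTTGAA. INCENP is the lowest of the 25 and DSN1 the highest of the 5. Capitals are as above.
INCENP: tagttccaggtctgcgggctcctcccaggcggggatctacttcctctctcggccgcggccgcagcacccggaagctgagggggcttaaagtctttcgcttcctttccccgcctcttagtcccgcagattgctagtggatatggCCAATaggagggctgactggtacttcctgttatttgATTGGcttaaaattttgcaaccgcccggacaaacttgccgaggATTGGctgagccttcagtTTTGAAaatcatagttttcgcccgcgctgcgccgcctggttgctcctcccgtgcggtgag
DSN1: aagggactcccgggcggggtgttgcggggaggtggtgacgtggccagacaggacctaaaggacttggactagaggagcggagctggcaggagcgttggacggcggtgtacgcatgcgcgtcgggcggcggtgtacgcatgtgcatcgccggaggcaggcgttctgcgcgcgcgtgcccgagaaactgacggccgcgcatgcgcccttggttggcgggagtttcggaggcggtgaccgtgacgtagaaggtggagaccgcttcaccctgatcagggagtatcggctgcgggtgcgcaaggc

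All 6 centromere and inner kinetochore genes were called higher, at a median log2 fold change of 0.57, and all 6 were also called in the test against 1.2-fold. CENPA, the histone H3 variant that marks centromeres, had 36.7, 41.7 and 33.6 CPM in libraries labelled sgSEPHS2, against 24.8, 25.3 and 26.5 CPM in sgCTRL libraries. The groups stood apart, and in edgeR the change was 0.55 on the log2 scale (SE 0.07, adjusted p = 9.39e-07). CENPU, a subunit of the constitutive centromere-associated network that recruits PLK1, had 100.4, 94.2 and 93.1 CPM in libraries labelled sgSEPHS2, against 64.0, 63.4 and 62.3 CPM in sgCTRL libraries. The gap between its groups was far wider than the spread within either (log2 fold change 0.60, SE 0.04, edgeR adjusted p = 6.25e-10). The other 4 network subunits ran from CENPN (0.47) and CENPK (0.54) to CENPW (0.64) and CENPM (0.71), and CENPM was at 13.6 ± 1.02 CPM in libraries labelled sgSEPHS2 against 8.33 ± 0.853 CPM in sgCTRL libraries (SD, n = 3 each).

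Other genes of the inner kinetochore followed in part: 11 of 14 were called higher and 0 lower, at a median of 0.33. They include CENPI at 0.71, MIS18A, which helps to load CENPA, at 0.65, CENPP at 0.51, CENPH at 0.45, CENPL at 0.35, CENPO at 0.32, and CENPQ and CENPX at 0.31 each. CENPS was called at 0.41 (edgeR adjusted p = 0.0275), but DESeq2 did not call it (adjusted p = 0.085), nor did 4 of the 6 edgeR fits that left out a library. In GENCODE v29, 64.7% of its exon bases lie in same-strand exons of CENPS-CORT. In edgeR's test 3 of the 14 were not called, while 22.0% of all tested genes were called higher and 23.4% lower. CENPC, which bridges CENPA chromatin to the outer kinetochore, had a log2 fold change of 0.03 (adjusted p = 0.663), CENPT one of -0.02 (0.853), and CENPB, which binds the CENP-B box, one of 0.14 (0.085).

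The 10 outer kinetochore genes were all called higher, at a median of 0.43, but the subunits of 1 complex differed in size. The NDC80 complex, a rod that grips microtubules, holds NUF2, SPC24 and SPC25 from the list, and NDC80 itself. NUF2 had 111.9, 115.7 and 110.8 CPM in libraries labelled sgSEPHS2, against 79.9, 78.7 and 84.0 CPM in sgCTRL libraries (log2 fold change 0.48, SE 0.04, edgeR adjusted p = 1.18e-08). SPC24 had 43.6, 44.5 and 40.8 CPM in libraries labelled sgSEPHS2, against 25.2, 27.4 and 29.1 CPM in sgCTRL libraries (0.66, SE 0.06, adjusted p = 1.06e-08). SPC25 had 14.7, 17.0 and 14.3 CPM in libraries labelled sgSEPHS2, against 8.90, 7.99 and 9.34 CPM in sgCTRL libraries, which is 1.75-fold (0.81, SE 0.09, adjusted p = 2.27e-07). None of these groups overlapped. NDC80 stood apart at 115 ± 3.89 CPM in libraries labelled sgSEPHS2 against 40.3 ± 3.33 CPM in sgCTRL libraries (SD, n = 3 each), a log2 fold change of 1.52 (edgeR adjusted p = 5.53e-15). Per kilobase of exon it was at 32.0 CPM in libraries labelled sgSEPHS2 against 11.2 in sgCTRL libraries, and NUF2 at 33.6 in libraries labelled sgSEPHS2 against 24.1 in sgCTRL libraries.

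NDC80 lies on the short arm of chromosome 18, where the 58 tested genes had a median log2 fold change of 0.94 and 53 were above 0. The part of a regional shift in its value was not tested. SKA1 lies on the long arm of the same chromosome (chr18:50375046-50394168), where the median of 170 tested genes was 0.03. SKA1, which with SKA2 and SKA3 holds kinetochores on shrinking microtubule ends, had 20.1, 18.9 and 18.2 CPM in libraries labelled sgSEPHS2, against 10.2, 9.83 and 11.2 CPM in sgCTRL libraries. It was 1.83-fold higher (log2 fold change 0.87, SE 0.08, edgeR adjusted p = 6.6e-09), the largest fold among the 57 genes other than NUSAP1 and PRC1. SKA2 had 109.1, 104.5 and 100.5 CPM in libraries labelled sgSEPHS2, against 77.6, 81.2 and 81.7 CPM in sgCTRL libraries (0.38, SE 0.04, adjusted p = 4.81e-07).

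SKA3 had the smallest change of its complex, at 32.7, 27.6 and 30.6 CPM in libraries labelled sgSEPHS2, against 26.4, 23.6 and 26.9 CPM in sgCTRL libraries (log2 fold change 0.24, SE 0.07, edgeR adjusted p = 0.00586). The lowest library labelled sgSEPHS2 was barely above the highest sgCTRL library. SKA3 is the only gene of the 59 on chromosome 13, where the 319 tested genes had a median of -0.40 and 48 were above 0; whether that chromosome's level enters the SKA3 value was not tested. The call was lost without sgCTRL replicate 2 (0.18, edgeR adjusted p = 0.0509) and with the length and GC trend removed (0.10, adjusted p = 0.216).

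The MIS12 complex joins inner and outer kinetochore, and its subunits were unequal. DSN1 had 76.4, 72.5 and 75.1 CPM in libraries labelled sgSEPHS2, against 50.6, 49.3 and 50.9 CPM in sgCTRL libraries (log2 fold change 0.57, SE 0.05, edgeR adjusted p = 1.63e-09). MIS12 had 60.2, 59.8 and 60.7 CPM in libraries labelled sgSEPHS2, against 48.1, 53.9 and 49.4 CPM in sgCTRL libraries (0.25, SE 0.05, adjusted p = 0.000286). Both were higher without overlap. The other subunits were not called: NSL1 was at 51.2 ± 2.64 CPM in libraries labelled sgSEPHS2 against 50.6 ± 1.46 CPM in sgCTRL libraries (0.02, edgeR adjusted p = 0.811), and PMF1 at 10.05 ± 0.546 CPM in libraries labelled sgSEPHS2 against 8.83 ± 0.318 CPM in sgCTRL libraries (0.19, adjusted p = 0.0932; SD, n = 3 each). KNL1, the scaffold for checkpoint proteins, had 129.9, 112.7 and 105.3 CPM in libraries labelled sgSEPHS2, against 98.2, 90.3 and 93.1 CPM in sgCTRL libraries (0.30, SE 0.06, adjusted p = 0.000239). CENPF, a large coiled-coil protein of the fibrous corona, was at 479 ± 31.3 CPM in libraries labelled sgSEPHS2 against 399 ± 13.5 CPM in sgCTRL libraries (0.26).

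**Figure D4:**
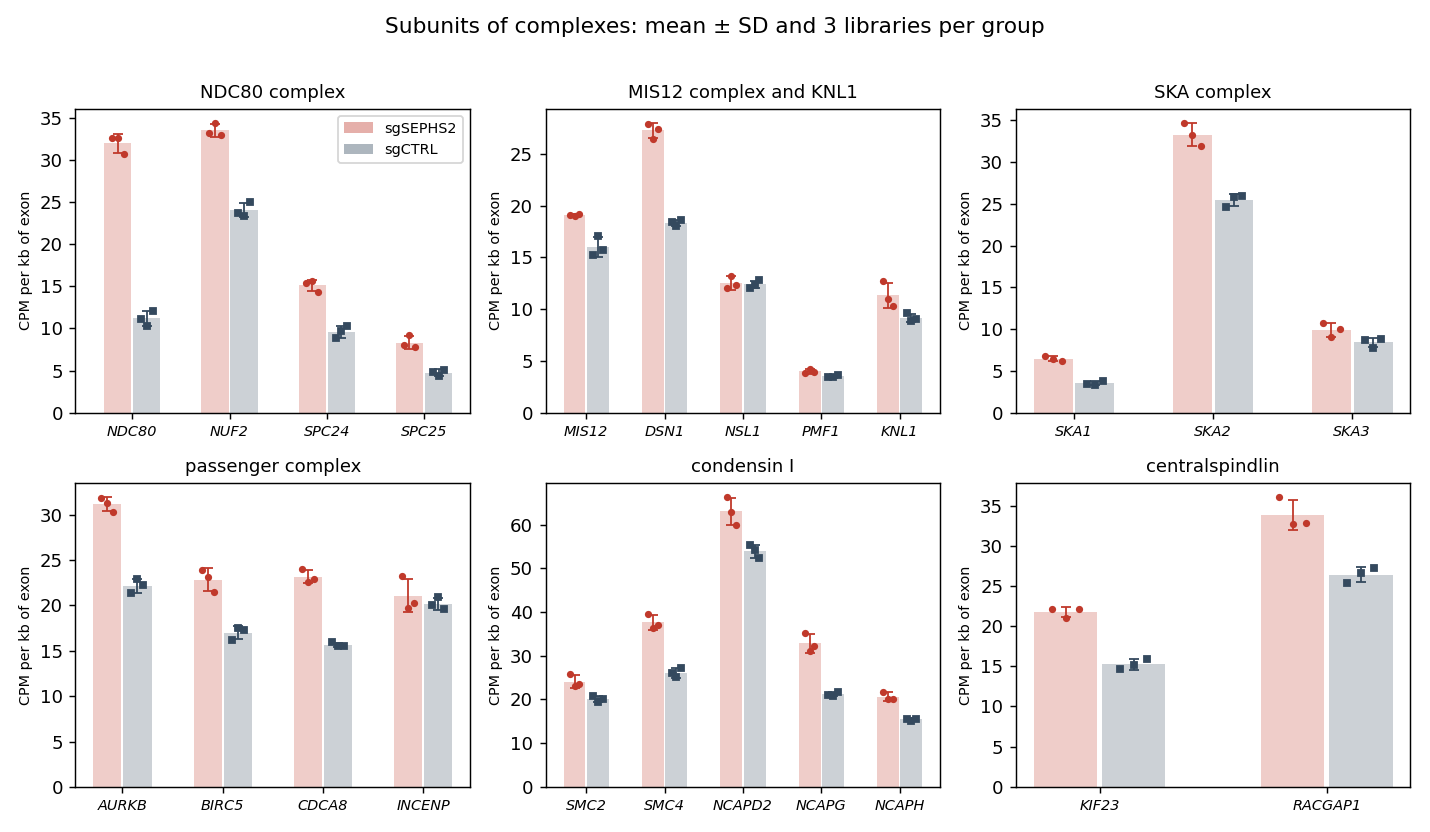
Level of the subunits of 6 complexes in CPM per kilobase of exon (vertical axes, each from 0), with bars for the mean, error bars for the SD and points for the 3 libraries of each group, libraries labelled sgSEPHS2 (red) left of sgCTRL (grey). In libraries labelled sgSEPHS2 against sgCTRL libraries, NDC80 is at 32.0 against 11.2, NSL1 at 12.5 against 12.4 and INCENP at 21.1 against 20.2.

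All 10 kinesins were called higher, at a median of 0.40. KIF11, the motor that pushes spindle poles apart, had 310.5, 285.5 and 297.5 CPM in libraries labelled sgSEPHS2, against 195.7, 184.2 and 189.1 CPM in sgCTRL libraries. Its lowest library labelled sgSEPHS2 lay well above its highest sgCTRL library, and the change of 1.57-fold was the largest of the group (log2 fold change 0.65, SE 0.04, edgeR adjusted p = 8.8e-11). KIF23, the centralspindlin motor of the midzone, had 145.1, 138.4 and 145.3 CPM in libraries labelled sgSEPHS2, against 96.1, 99.8 and 104.6 CPM in sgCTRL libraries (0.51, SE 0.04, adjusted p = 5.19e-09). KIF18A, which damps chromosome movement, was also at 0.51, KIF15, which backs up KIF11, at 0.47, and KIF14, a midbody motor, at 0.46. Smaller changes belonged to CENPE, which carries chromosomes to the equator (0.35), KIF4A (0.34), KIF20A (0.32), the microtubule depolymerase KIF2C (0.31) and KIF20B (0.28).

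Among 6 genes of spindle assembly and microtubule binding, 5 were called higher. TPX2, which activates AURKA and nucleates microtubules at chromatin, was at 274 ± 9.57 CPM in libraries labelled sgSEPHS2 against 202 ± 0.246 CPM in sgCTRL libraries (SD, n = 3 each; log2 fold change 0.44, edgeR adjusted p = 1.47e-08). DLGAP5, a kinetochore fibre stabiliser, was at 114 ± 4.2 CPM in libraries labelled sgSEPHS2 against 76.0 ± 1.13 CPM in sgCTRL libraries (0.58, adjusted p = 6.11e-10). HMMR, a spindle pole partner of TPX2, stood at 0.43, and ASPM, which focuses spindle poles, at 0.34.

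PRC1, which bundles antiparallel microtubules of the midzone, and NUSAP1, which binds microtubules near chromatin, were counted at levels far below the rest. PRC1 had 41, 69 and 59 reads in libraries labelled sgSEPHS2, against 43, 38 and 48 reads in sgCTRL libraries. NUSAP1 had 37, 44 and 23 reads in libraries labelled sgSEPHS2, against 15, 17 and 16 reads in sgCTRL libraries. Per kilobase of exon they were at 0.257 and 0.310 CPM in libraries labelled sgSEPHS2, while the other 57 genes ran from 5.69 to 123. In the GENCODE v29 annotation, which may not be the one the authors used, 57.6% of the exon bases of PRC1 and 62.2% of those of NUSAP1 lie in same-strand exons of another annotated gene, and the highest value among the other 57 genes is 10.2%. The part of that overlap in the low counts was not tested. The groups of PRC1 overlapped, and edgeR did not call it (log2 fold change 0.44, SE 0.24, adjusted p = 0.136). NUSAP1 was called at 1.18 (SE 0.37, adjusted p = 0.0114), and not without replicate 1 or replicate 2 labelled sgSEPHS2 (adjusted p = 0.0570 and 0.0573).

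The 3 cytokinesis genes were called higher, each also in the test against 1.2-fold. ANLN, the anillin scaffold of the contractile ring, had 321.6, 296.7 and 297.2 CPM in libraries labelled sgSEPHS2, against 197.3, 196.1 and 191.9 CPM in sgCTRL libraries (log2 fold change 0.64, SE 0.04, edgeR adjusted p = 8.46e-11). ECT2, the exchange factor that activates RHOA at the furrow, had 153.6, 132.8 and 138.8 CPM in libraries labelled sgSEPHS2, against 103.8, 108.3 and 106.1 CPM in sgCTRL libraries (0.42, SE 0.05, adjusted p = 5.5e-07). RACGAP1, the centralspindlin partner of KIF23, had 161.6, 147.0 and 147.4 CPM in libraries labelled sgSEPHS2, against 113.8, 119.6 and 122.0 CPM in sgCTRL libraries (0.36, SE 0.05, adjusted p = 1.83e-06). None of the 3 overlapped between groups, and replicate 1 labelled sgSEPHS2 was the highest library for each. Among 12 other cytokinesis genes, 4 were called higher and 1 lower, with a median of 0.04. Over all tested genes 22.0% were called higher and 23.4% lower. The 1 called lower was MYH10, at -0.19 (edgeR adjusted p = 0.000817). CEP55, a midbody gene, rose by 0.56, RHOA by 0.22 and SEPTIN7 by 0.20 on the log2 scale.

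The 5 checkpoint genes were called higher, at a median of 0.29, the lowest of the 10 roles, and 2 of them were called in the test against 1.2-fold. Those were TTK, the kinase also known as MPS1 that starts the checkpoint signal, at 65.0 ± 0.966 CPM in libraries labelled sgSEPHS2 against 44.9 ± 2.54 CPM in sgCTRL libraries (0.53, edgeR adjusted p = 1.82e-08), and BUB1, at 97.3 ± 4.03 CPM in libraries labelled sgSEPHS2 against 68.4 ± 0.568 CPM in sgCTRL libraries (0.51, adjusted p = 6.9e-09; SD, n = 3 each). The other 3 had smaller fold changes. BUB1B, which encodes BUBR1, was at 0.29, MAD2L1 at 0.27 and BUB3 at 0.23, where BUB3 had 253 ± 2.58 CPM in libraries labelled sgSEPHS2 against 215 ± 3.15 CPM in sgCTRL libraries (adjusted p = 5.68e-05). CDC20, which BUBR1, BUB3 and MAD2 bind in the mitotic checkpoint complex, had 168.6, 172.3 and 156.9 CPM in libraries labelled sgSEPHS2, against 105.9, 103.5 and 104.4 CPM in sgCTRL libraries. It stood at 0.67 (SE 0.04, edgeR adjusted p = 8.62e-11), with no overlap. UBE2C, the ubiquitin-conjugating enzyme of the anaphase-promoting complex, was at 127 ± 2.16 CPM in libraries labelled sgSEPHS2 against 89.5 ± 5.08 CPM in sgCTRL libraries (0.50, adjusted p = 1.28e-08).

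The 17 other genes of the anaphase-promoting complex moved less as a list, with 9 called higher, 2 lower and a median of 0.21. UBE2S, which extends its ubiquitin chains, was at 0.49 and the subunit ANAPC16 at 0.39. Of the 2 called lower, the subunit CDC16 was at -0.36 (edgeR adjusted p = 4.77e-07). Among 13 other checkpoint and kinase genes, 10 were called higher and 1 lower, with a median of 0.46. For comparison with both lists, 22.0% of all tested genes were called higher and 23.4% lower. The mitotic cyclin CCNB1 was at 319 ± 8.97 CPM in libraries labelled sgSEPHS2 against 211.5 ± 4.91 CPM in sgCTRL libraries (SD, n = 3 each; 0.59, edgeR adjusted p = 1.62e-10), its kinase CDK1 at 0.55, and TRIP13, which disassembles the checkpoint complex, at 0.63.

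Of the 6 mitotic kinase and passenger genes, 5 were called higher. AURKA, the spindle pole kinase, was at 160.0 ± 6.03 CPM in libraries labelled sgSEPHS2 against 108 ± 2.54 CPM in sgCTRL libraries (log2 fold change 0.57, edgeR adjusted p = 7.55e-10). PLK1, the polo kinase, had 107.5, 105.0 and 99.5 CPM in libraries labelled sgSEPHS2, against 79.4, 82.9 and 80.5 CPM in sgCTRL libraries (0.36, SE 0.04, adjusted p = 9.59e-07). In the chromosomal passenger complex, the kinase AURKB was at 69.8 ± 1.72 CPM in libraries labelled sgSEPHS2 against 49.7 ± 1.69 CPM in sgCTRL libraries (0.49, adjusted p = 2.56e-08). Borealin, encoded by CDCA8, was at 57.3 ± 1.76 CPM in libraries labelled sgSEPHS2 against 38.6 ± 0.659 CPM in sgCTRL libraries (0.57, adjusted p = 4.76e-09), and survivin, encoded by BIRC5, at 87.2 ± 4.75 CPM in libraries labelled sgSEPHS2 against 64.9 ± 2.59 CPM in sgCTRL libraries (0.43, adjusted p = 4.02e-07; SD, n = 3 each). INCENP, the scaffold that binds all 3, did not follow them. It had 103.8, 88.4 and 90.8 CPM in libraries labelled sgSEPHS2, against 89.6, 93.6 and 87.7 CPM in sgCTRL libraries. Those groups overlapped, with replicate 1 labelled sgSEPHS2 above all others (0.06, SE 0.05, edgeR adjusted p = 0.379), and without that library the value was -0.01.

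All 7 condensin and chromosome structure genes were called higher, at a median of 0.34, but the 5 condensin I subunits were spread. NCAPG, a HEAT-repeat subunit, had 173.4, 152.9 and 158.4 CPM in libraries labelled sgSEPHS2, against 103.4, 102.3 and 106.9 CPM in sgCTRL libraries (log2 fold change 0.63, SE 0.05, edgeR adjusted p = 6.08e-10). The ATPase subunit SMC4 was at 318 ± 13.8 CPM in libraries labelled sgSEPHS2 against 221 ± 9.39 CPM in sgCTRL libraries (0.53, adjusted p = 3.89e-09), and the kleisin NCAPH at 0.42. The other ATPase SMC2 was at 0.26 and NCAPD2 at 0.23, and NCAPD2 had 409 ± 20.3 CPM in libraries labelled sgSEPHS2 against 349.6 ± 9.92 CPM in sgCTRL libraries (SD, n = 3 each). TOP2A, the decatenating topoisomerase and the most abundant of the 59 per kilobase (123 CPM per kb in libraries labelled sgSEPHS2, 97.04 in sgCTRL libraries), had 827.7, 748.6 and 798.1 CPM in libraries labelled sgSEPHS2, against 630.8, 613.6 and 629.5 CPM in sgCTRL libraries (0.34, SE 0.04, adjusted p = 1.31e-06).

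MKI67, the Ki-67 surfactant of mitotic chromosomes and the clinical proliferation marker, moved little. It had 551.8, 453.7 and 467.6 CPM in libraries labelled sgSEPHS2, against 455.3, 428.8 and 439.4 CPM in sgCTRL libraries. The groups overlapped, and replicate 1 labelled sgSEPHS2 was far above the other 5 libraries. The call (log2 fold change 0.15, SE 0.06, edgeR adjusted p = 0.029) was lost with DESeq2 (adjusted p = 0.246) and in edgeR without replicate 1 labelled sgSEPHS2 (0.06, adjusted p = 0.230) or sgCTRL replicate 2 or 3 (adjusted p = 0.1198 and 0.0726).

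The 4 cohesion genes were called higher, at a median of 0.43. The shugoshin SGO1, which protects centromeric cohesin, had 22.3, 23.0 and 20.2 CPM in libraries labelled sgSEPHS2, against 13.03, 14.3 and 13.4 CPM in sgCTRL libraries (log2 fold change 0.68, SE 0.07, edgeR adjusted p = 7.68e-08). Its relative SGO2 was at 59.3 ± 5.31 CPM in libraries labelled sgSEPHS2 against 45.4 ± 2.17 CPM in sgCTRL libraries (0.38, adjusted p = 1.65e-05). ESPL1, which encodes separase, was at 78.6 ± 7.87 CPM in libraries labelled sgSEPHS2 against 56.6 ± 0.553 CPM in sgCTRL libraries (0.47, adjusted p = 6.71e-07), and its inhibitor securin, encoded by PTTG1, at 181 ± 13.4 CPM in libraries labelled sgSEPHS2 against 145 ± 3.77 CPM in sgCTRL libraries (0.32, adjusted p = 1.5e-05; SD, n = 3 each). Protease and inhibitor were both higher without overlap. Among 16 genes of condensin II and cohesin, 11 were called higher and 4 lower, with a median of 0.17. The shares over all tested genes were 22.0% higher and 23.4% lower. The acetyltransferase ESCO2 was at 0.78 and sororin, encoded by CDCA5, at 0.53. PDS5B was among the 4 called lower, at -0.39 (edgeR adjusted p = 3.6e-07).

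**Figure D5:**
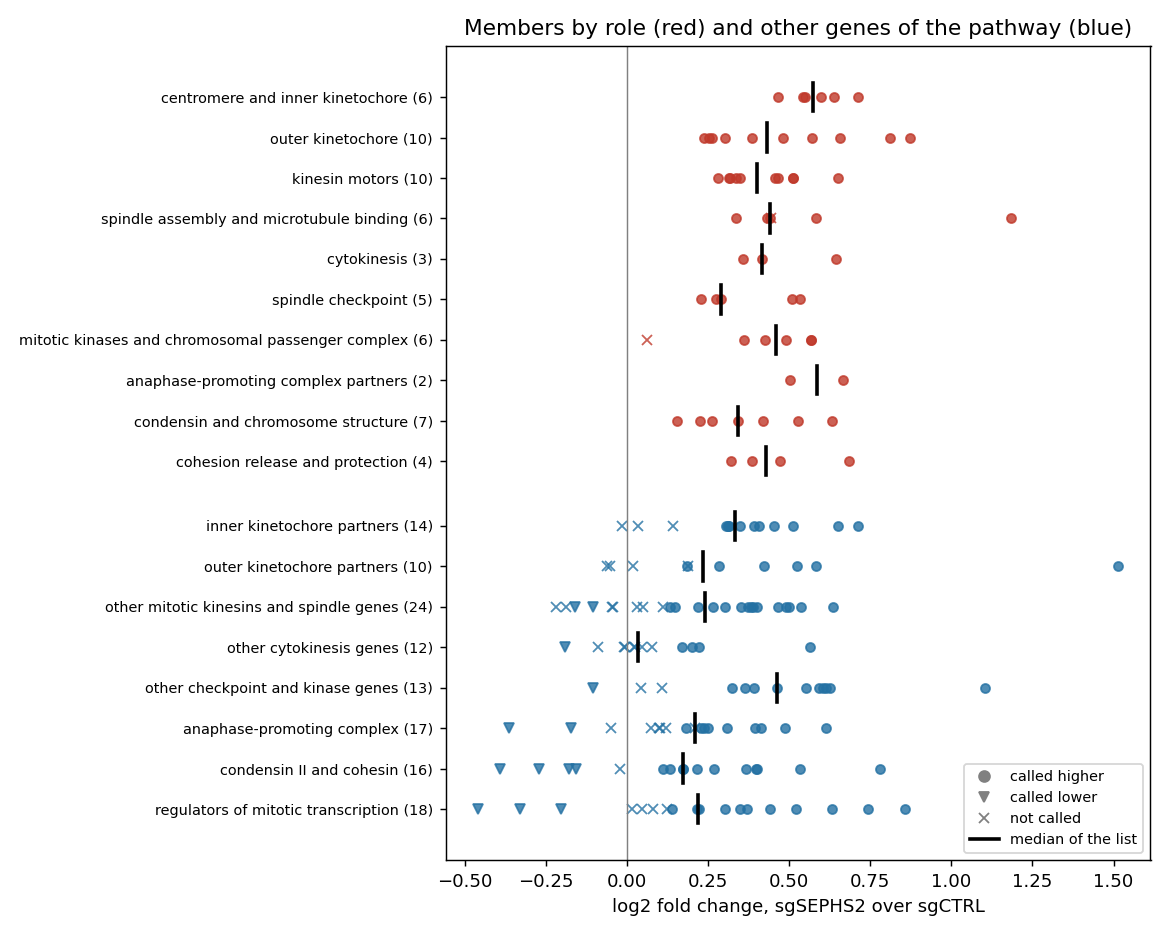
Log2 fold change of each gene, libraries labelled sgSEPHS2 over sgCTRL (horizontal axis), for the 59 genes by role (red) and for 124 other genes of the same processes (blue), with the number tested beside each list. Circles were called higher, triangles lower and crosses not called, and black bars are medians; the red medians lie between 0.29 and 0.58 and the blue ones between 0.04 and 0.46.

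Over all 124 tested genes of the companion lists, 77 were called higher, 13 lower and 34 neither, with a median log2 fold change of 0.22, against 22.0% higher and 23.4% lower over all tested genes. Away from chromosomes 13 and 18 the counts were 74 higher and 9 lower of 115, with a median of 0.23. The 6 on chromosome 13 held 4 called lower, named here after their values were seen: RB1 at -0.46, PDS5B at -0.39, CDC16 at -0.36 and CKAP2 at -0.10. The CKAP2 call (edgeR adjusted p = 0.0418) held in 2 of the 6 fits that left out a library. All 3 on chromosome 18 were called higher: NDC80, ESCO1 at 0.40 and HAUS1 at 0.37. NDC80 lies on the short arm, where the median of tested genes was 0.94. HAUS1 lies on the long arm, where it was 0.03. Among 24 other spindle genes, 15 were called higher and 2 lower, and the smallest adjusted p belonged to KIF18B (0.63), SPAG5 (0.54) and TACC3 (0.46). In the outer kinetochore, 6 of 10 were called higher and 0 lower, among them ZWINT at 0.58 and ZWILCH at 0.52, which serve the checkpoint.

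The transcription factors MYBL2, FOXM1 and E2F1 were also higher. Among 18 regulators, with a median of 0.22, 11 were called higher and 3 lower, against 22.0% and 23.4% of all tested genes. The lowest of the 18 was RB1, called lower at -0.46. MYBL2, the B-MYB subunit that switches the MuvB core to activation, was at 91.3 ± 5.8 CPM in libraries labelled sgSEPHS2 against 54.6 ± 2.33 CPM in sgCTRL libraries (log2 fold change 0.74, edgeR adjusted p = 1.8e-10). FOXM1, which drives G2 and M genes, was at 101 ± 10.2 CPM in libraries labelled sgSEPHS2 against 70.3 ± 3.67 CPM in sgCTRL libraries (0.52, adjusted p = 2.78e-07). E2F1 was at 34.4 ± 1.3 CPM in libraries labelled sgSEPHS2 against 18.9 ± 1.38 CPM in sgCTRL libraries (0.86, adjusted p = 3.74e-10). CDKN1A, which encodes the cell cycle inhibitor p21, was higher too, at 82.7 ± 4.76 CPM in libraries labelled sgSEPHS2 against 53.4 ± 0.937 CPM in sgCTRL libraries (0.63, adjusted p = 1.01e-09; SD, n = 3 each).

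Reads from near-identical copies were few where the table lists the copy. KIF4B, the copy of KIF4A, had 44, 39 and 38 reads in libraries labelled sgSEPHS2 and 35, 21 and 25 in sgCTRL libraries, and PTTG3P, a copy of PTTG1, had at most 4. BUB1B shares exons with the readthrough symbol BUB1B-PAK6, which was at 4.30 ± 0.14 CPM in libraries labelled sgSEPHS2 against 4.11 ± 0.364 CPM in sgCTRL libraries (SD, n = 3 each). The strand setting of the counting is not given in the sources used here, and antisense exons of other genes cover 33.1% of exon bases of NCAPG, 25.6% of SMC4, 22.8% of CENPN and 17.7% of SGO1. The values of these 7 genes are uncertain to that extent.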

How the data were processed

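The authors deposited 1 table of raw counts of reads per gene symbol in 6 libraries. Per the submitters' processing notes, the tools were featureCounts 2.0.6, HISAT2 2.2.1, FastQC 0.12.1 and SAMtools 1.21, with GRCh38. The annotation, strand setting and handling of multimapping reads were not given in the sources used here. Testing of the counts used edgeR 4.0.16 in R 4.3.3 (TMM factors, default expression filter, two-sided quasi-likelihood test, group as the only term), with Benjamini-Hochberg adjustment over all 16910 genes kept; 4721 were left out. Every adjusted p is from this test unless another is named. Depth was 34606145 to 43405579 reads per library, and intervals reflect the spread between libraries. Chi-square tests found more difference than sampling noise between all replicates. Levels per kilobase used GENCODE v29 exon lengths, and positions and promoter windows came from RefSeq GRCh38.p14. The procedure was tested on simulated counts.

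Every listed gene is named, ordered by role. Of the companion genes, the named ones are the remaining subunits of complexes, FOXM1, MYBL2 and CDKN1A, and up to 3 per list with the smallest adjusted p. The genes, lists and tests were chosen with earlier results of these data known. Alternatives were upper-quartile and RLE factors, no filter, a minimum of 1 CPM in 3 libraries, DESeq2 1.42.0, edgeR's test against 1.2-fold, the replicate number as a block, each library left out, and an adjusted p under 0.01. Removing an exon length and GC trend was added after seeing the data. Python 3.11.15 and matplotlib 3.10.9 drew the figures.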

Additional observations from a re-analysis of the deposited data

How the results depend on the processing

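RLE and upper-quartile factors, no filter, and the replicate block left the count of the 59 genes called higher at 57. DESeq2, the 1 CPM filter (which drops NUSAP1) and the length and GC trend gave 56, an adjusted p under 0.01 gave 55, and the test against 1.2-fold gave 39; 0 were called lower in each. With the length and GC trend removed, chosen after seeing the data, their median log2 fold change was 0.39. The test against 1.2-fold also left 40 companion genes higher and 3 lower, and 1074 genes higher and 1883 lower over all tested. Leaving out each library in turn gave 55 to 57 of the 59 higher, medians of 0.43 to 0.47, 73 to 76 companion genes higher and 8 to 14 lower (8 without sgSEPHS2 replicate 2), and 3069 to 3548 higher and 3270 to 3905 lower genes over all tested. INCENP turned to -0.0109 (edgeR adjusted p = 0.873) without sgSEPHS2 replicate 1 and reached 0.11 without replicate 2, and 54 of the 59 were called in all 6 such fits. Deviations of same-numbered libraries correlated at 0.00998, -0.0931 and -0.254, and those of differently numbered ones at -0.251 to 0.296. With 3 libraries per group, these values cannot show whether the replicate numbers pair the libraries. The block, at 57 higher, changed no member's call. PRC1 and NUSAP1 rest on 15 to 69 reads in a library, so their values are less precise than the others (SE 0.24 and 0.37).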
